A study of Homo sapiens with 16 samples.

Results

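The 9 genes of nucleoside metabolism that handle the T-cell leukemia drugs nelarabine and cytarabine, namely SLC29A1, DCK, DGUOK, SAMHD1, CDA, ADA, PNP, RRM1 and RRM2, were described across 16 human lines derived from T-cell acute lymphoblastic leukemia (T-ALL), in which T-cell precursors turn malignant. They were chosen by symbol for their place in the pathway, with earlier results of these data known, and all 9 were among the 19735 genes measured. Each line was grown untreated for 24 hours in 10 ml RPMI-1640 medium with fetal bovine serum and antibiotics, and its total RNA was hybridised to 1 Affymetrix array. The lines were ALL-SIL, CCRF-CEM, DU528, HSB-2, JURKAT, KOPT-K1, LOUCY, MOLT-16, MOLT-4, P12-ICHIKAWA, PEER, PF-382, SKW-3, SUP-T11, SUP-T13 and TALL-1. They form 1 group with no normal T cells, and each was measured on a single array, so an SD below is the spread between different lines and not an error of measurement. No line was exposed to a drug here, and messenger RNA is neither enzyme activity nor drug response.

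Cytarabine and ara-G, the active form of nelarabine, are nucleoside analogs that stop DNA synthesis once cells have turned them into triphosphates. SLC29A1 is an equilibrative transporter that carries nucleosides into the cell, ADA turns the prodrug nelarabine into ara-G, and the kinases DCK in the cytosol and DGUOK in mitochondria add the first phosphate. CDA deaminates cytarabine to an inactive product, SAMHD1 hydrolyses deoxynucleotide triphosphates and analog triphosphates, and PNP cleaves natural purine nucleosides such as deoxyguanosine. RRM1 and RRM2 are the large and small subunits of ribonucleotide reductase, which makes the deoxynucleotides that compete with the analogs. Loss of ADA or PNP in humans causes immune deficiency, since thymocytes accumulate toxic deoxynucleotides.

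Levels are linear intensities as deposited (median over all probe sets and lines, here the table median, 42.4), and spreads are in units of log2(intensity + 16). A gene was taken as clearly above the bulk of the table from 4 times that median, an intensity of 169. Array medians ran from 37.6 to 45.0, and the 3'/5' signal ratio of the ACTB controls, which rises as RNA degrades, from 1.44 in DU528 to 2.03 in MOLT-4. The same ratio of the GAPDH controls was highest in SUP-T11 (1.05, against 0.904 to 0.980 in the other lines), and its part in the values of that line was not tested. T-lineage markers bore out the label: CD3D was at least 7095 in every line and 7 of 10 measured markers exceeded 169 in all lines. The other 3 were CD2 (lowest in DU528 at 11.1), CD5 (lowest in DU528 at 9.5) and CD3E (lowest in MOLT-16 at 31.2). Of 9 measured myeloid markers only LYZ in DU528 (385) and S100A9 in SKW-3 (202) exceeded 169. Of 4 B-lineage markers CD79A exceeded 169 in all 16 lines (215 to 411) and EBF1 only in LOUCY (865). Of 4 erythroid and megakaryocytic markers EPOR reached 169 in 7 lines, and HBB and ITGA2B in 2 each, both highest in LOUCY (280 and 451). Of 5 stromal markers only PDGFRB in ALL-SIL (493) did. Array control transcripts added before labelling (12 poly-A spikes) varied with a median SD of 0.23 and a largest SD of 0.28. A step between neighbouring lines of over 0.65 was marked as larger than the median control varied. This cut is 2 SDs of a difference between 2 arrays at the median SD, and the most variable controls would give a higher cut. These controls do not cover differences between cultures or extractions.

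Promoter sequences of 5 of the genes are shown because the results turn on these genes: SAMHD1 and ADA, the most variable of the 9, CDA, the one low in every line, and the reductase pair RRM1 and RRM2. They were taken from RefSeq (build GRCh38.p14) and run from 250 bases before to 50 after a start listed for the gene. In the first set capitals mark CG dinucleotides, the sites of DNA methylation in human cells, which was not measured here. SAMHD1 lies on chr20:36951659-36951958 (minus strand), ADA on chr20:44651650-44651949 (minus strand) and CDA on chr1:20588847-20589146 (plus strand).
SAMHD1: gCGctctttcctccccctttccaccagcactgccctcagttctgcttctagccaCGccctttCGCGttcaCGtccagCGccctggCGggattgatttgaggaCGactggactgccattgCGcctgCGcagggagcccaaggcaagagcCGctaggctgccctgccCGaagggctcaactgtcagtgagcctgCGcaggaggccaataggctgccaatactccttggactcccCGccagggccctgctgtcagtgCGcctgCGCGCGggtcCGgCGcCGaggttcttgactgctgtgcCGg
ADA: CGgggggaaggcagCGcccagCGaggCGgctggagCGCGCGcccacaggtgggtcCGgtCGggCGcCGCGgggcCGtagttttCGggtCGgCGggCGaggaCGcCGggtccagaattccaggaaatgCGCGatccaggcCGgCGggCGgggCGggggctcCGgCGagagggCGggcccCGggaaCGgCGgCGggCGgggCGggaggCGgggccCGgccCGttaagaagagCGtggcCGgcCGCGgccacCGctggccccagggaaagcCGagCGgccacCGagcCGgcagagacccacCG
CDA: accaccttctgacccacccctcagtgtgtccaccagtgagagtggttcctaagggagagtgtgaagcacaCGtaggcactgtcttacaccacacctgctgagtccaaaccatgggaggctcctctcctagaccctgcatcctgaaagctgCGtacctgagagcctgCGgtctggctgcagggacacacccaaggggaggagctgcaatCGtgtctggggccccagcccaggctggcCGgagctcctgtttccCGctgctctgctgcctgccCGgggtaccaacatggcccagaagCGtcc
The ADA window held 47 CG dinucleotides, more than in 97.6% of the 35116 promoter windows of this length, SAMHD1 held 22 and CDA 8, against a median of 14. In the second set capitals mark CCAAT, the core of a common promoter element, which was searched on both strands as CCAAT and ATTGG. RRM1 lies on chr11:4094435-4094734 and RRM2 on chr2:10122489-10122788, both on the plus strand.
RRM1: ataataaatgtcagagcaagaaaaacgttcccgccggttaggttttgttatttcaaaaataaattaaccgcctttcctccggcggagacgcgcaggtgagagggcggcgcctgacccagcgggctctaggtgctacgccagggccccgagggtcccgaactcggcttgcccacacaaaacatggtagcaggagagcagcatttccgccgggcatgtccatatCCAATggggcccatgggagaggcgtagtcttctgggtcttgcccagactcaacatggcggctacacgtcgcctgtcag
RRM2: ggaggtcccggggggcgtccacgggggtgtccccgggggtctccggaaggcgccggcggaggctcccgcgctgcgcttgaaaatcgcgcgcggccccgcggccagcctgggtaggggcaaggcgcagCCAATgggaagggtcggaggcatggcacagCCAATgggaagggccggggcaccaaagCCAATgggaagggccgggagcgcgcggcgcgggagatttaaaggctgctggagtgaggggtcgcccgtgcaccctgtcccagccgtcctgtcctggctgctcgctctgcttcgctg
The RRM2 window held 3 CCAAT matches, a number reached by 3.26% of all windows, and RRM1 held 1, a number reached by 34.6%. RefSeq lists 2 starts for RRM2, and the window shown is set on the downstream one. The window of the other start, at 10122568 where the gene begins, held 1 match, so the count depends on the start. Motifs of the E2F transcription factors were also searched on both strands. The RRM1 window and both RRM2 windows held 0, those of DCK and CDA held 1 each, and 3.31% of all windows had a match. A match of letters is a description and does not show that a factor binds.

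**Figure D1:**
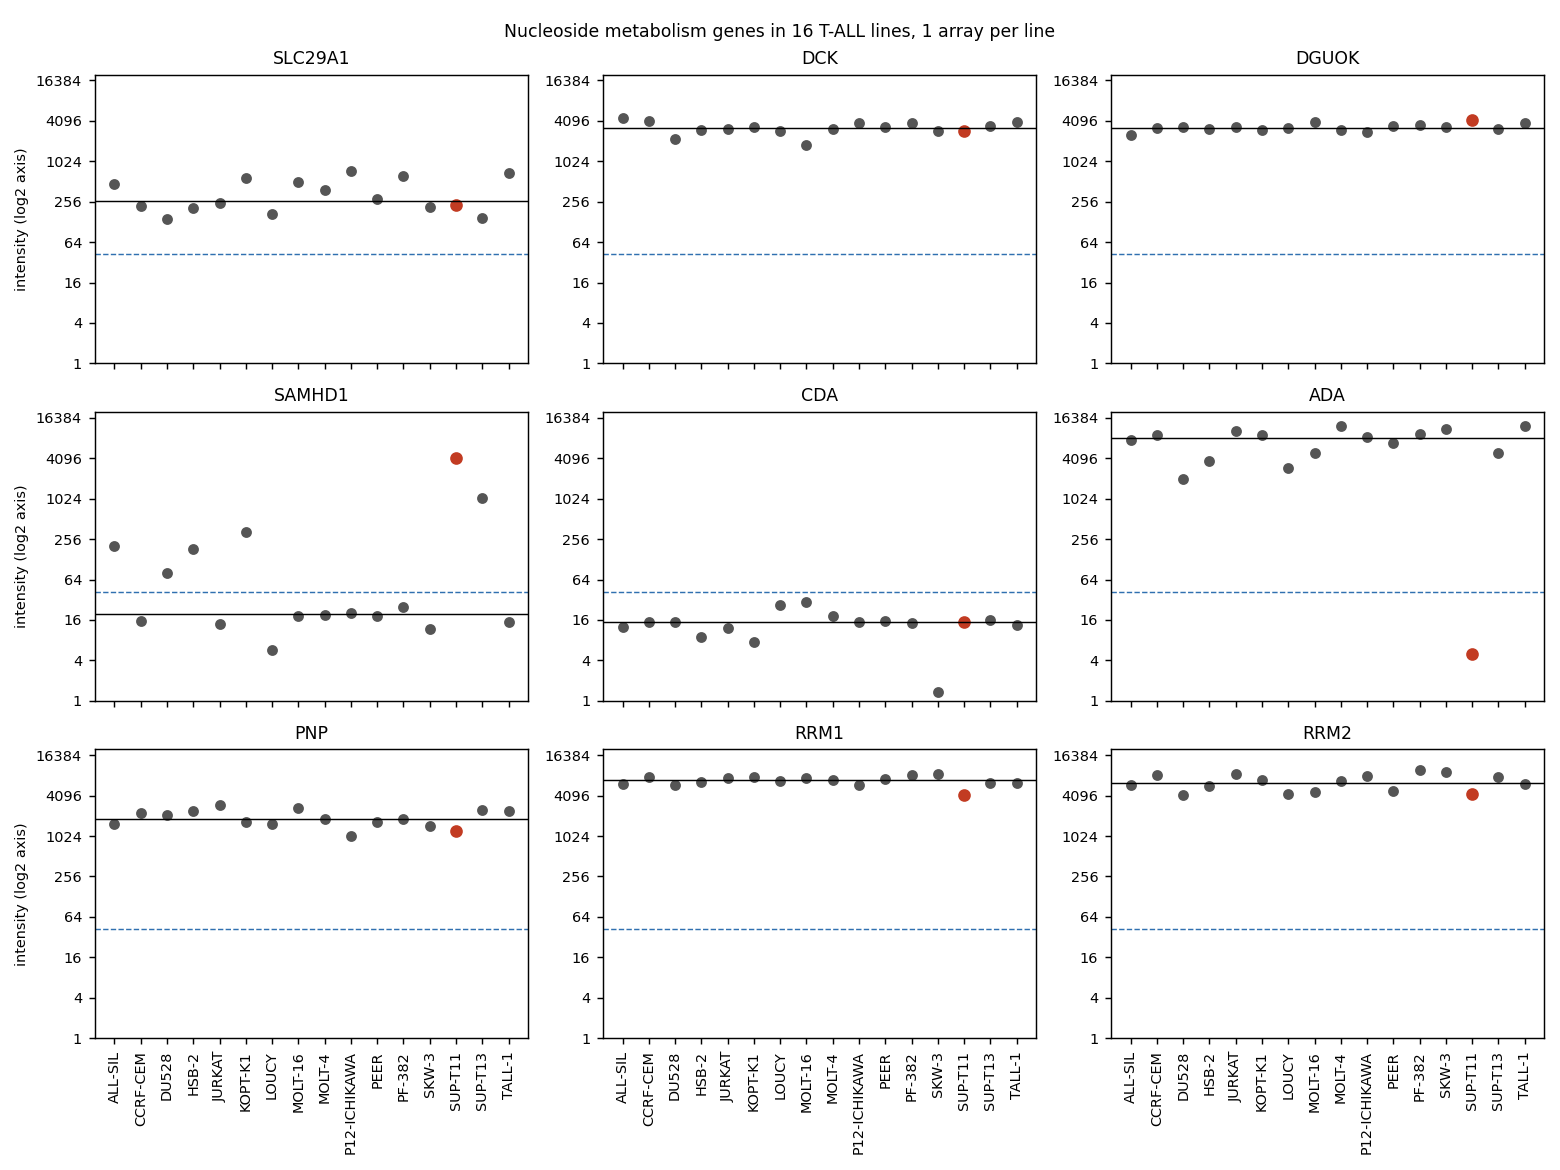
Intensity on a log2 axis of each of the 9 genes in the 16 lines, 1 point per line and array, with the median of the lines (solid) and the median of the whole table of 42.4 (dashed); SUP-T11 is in red. SAMHD1 reaches 4083 in SUP-T11 and lies below the dashed line in 10 lines, ADA falls to 4.91 in SUP-T11, CDA stays below the dashed line in every line, and the other 6 genes stay above it throughout.

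Over the 16 lines 2 genes differed widely and the other 7 much less. The SD was 2.22 for ADA and 2.20 for SAMHD1, 0.78 for SLC29A1, 0.42 for both PNP and RRM2, 0.33 for DCK, 0.32 for CDA, 0.25 for RRM1 and 0.18 for DGUOK, and the median SD of all genes was 0.35. An SD above 1 was thus seen in 2 of 9 members and in 12.5% of all genes. DCK, DGUOK, PNP, RRM1 and RRM2 exceeded 169 in every line, which 32.2% of all genes did, and CDA never reached it, which held for 45.0% of all genes. Of the 135 steps between lines that were neighbours in the order of a gene's levels, 6 exceeded 0.65, 5 of them for SAMHD1 and 1 for ADA. All the other neighbours in the orders given below differed by less than that.

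SLC29A1, the uptake transporter (probe set 201802_at), was highest in P12-ICHIKAWA (732), TALL-1 (682), PF-382 (619), KOPT-K1 (581), MOLT-16 (504), ALL-SIL (476) and MOLT-4 (386). It was 277 in PEER, 247 in JURKAT and 229 in SUP-T11, close to CCRF-CEM (217), SKW-3 (211) and HSB-2 (207), and lowest in LOUCY (166), SUP-T13 (144) and DU528 (141). The range was 2.25 log2 units, in small steps: the largest, between MOLT-4 and PEER, was 0.46, so no line stood apart. A second probe set of the gene gave nearly the same order (r = 0.97 over the 16 lines), again with P12-ICHIKAWA highest (425) and DU528 lowest (59.5). SLC29A1 was higher on arrays with a higher ACTB 3'/5' ratio (r = 0.66, rho = 0.74 over 16 lines; r = 0.85 without JURKAT and MOLT-4, the lines with the highest ratios). The ratio was lowest in DU528, LOUCY and SUP-T13, the 3 lines lowest for SLC29A1, and its part in the SLC29A1 differences was not tested for the levels themselves.

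DCK, the cytosolic kinase that acts on both drugs (203302_at), lay within 1.29 log2 units in all lines. It was highest in ALL-SIL (4437), CCRF-CEM (4114), TALL-1 (3947), PF-382 (3783) and P12-ICHIKAWA (3777). The next were SUP-T13 (3461), PEER (3338), KOPT-K1 (3266), JURKAT (3073), MOLT-4 (3060.5), HSB-2 (3035), SKW-3 (2913), SUP-T11 (2907) and LOUCY (2868). DU528 (2166) and MOLT-16 (1809.7) were lowest, and the step of 0.40 between LOUCY and DU528 was the largest. No line had lost DCK messenger RNA, and only 1 probe set measures the gene.

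DGUOK, the mitochondrial kinase (209549_s_at), varied least of the 9, and 4.73% of all genes had a smaller SD. It ran from 2529.8 in ALL-SIL and 2748 in P12-ICHIKAWA to 3748 in TALL-1, 3946 in MOLT-16 and 4167 in SUP-T11, with a median of 3214. ALL-SIL, highest for DCK, was thus lowest for DGUOK, and MOLT-16, lowest for DCK, was next to highest for DGUOK. Over all lines the pair had r = -0.48 (rho = -0.38), and r = -0.34 without DU528 and MOLT-16. The other DGUOK probe sets followed the chosen one only in part (r = 0.48 and 0.59), and the one with r = 0.48 was lowest in MOLT-4 and highest in PF-382, so the order of lines for this gene depends on the probe set.

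SAMHD1, the triphosphate hydrolase (234987_at), was high in few lines. It was 4083 in SUP-T11, 1034 in SUP-T13, 326 in KOPT-K1, 199 in ALL-SIL, 181 in HSB-2 and 79.6 in DU528. In the other 10 lines it lay below the table median, at 24.9 in PF-382, 20.6 in P12-ICHIKAWA, 19.3 in MOLT-4, 18.6 in PEER, 18.3 in MOLT-16, 15.3 in CCRF-CEM, 15.1 in TALL-1, 13.98 in JURKAT, 11.8 in SKW-3 and 5.63 in LOUCY. Values this low have no reliable order. The 5 steps of over 0.65 separated SUP-T11 from SUP-T13 (1.97), SUP-T13 from KOPT-K1 (1.62), KOPT-K1 from ALL-SIL (0.67), HSB-2 from DU528 (1.04) and DU528 from PF-382 (1.22). The step of 0.67 lay close to the cut, which rests on the median spike SD and not on the largest.

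All 6 SAMHD1 probe sets were highest in SUP-T11 and next in SUP-T13, at intensities from 238 to 5586 in SUP-T11 and from 38.2 to 1449 in SUP-T13. They followed the chosen probe set with r from 0.87 to 0.99. SAMHD1 is abundant in myeloid cells, so myeloid markers were set beside it. In SUP-T11 0 of 9 exceeded 169, SPI1 was at 1, CD14 at 5.32 and MPO at 6.6, and their summed intensity of 182 lay within the range of the other lines (163 to 546). In SUP-T13 0 of 9 exceeded 169 as well, with a sum of 208. Why SAMHD1 was high in SUP-T11 and SUP-T13 was not tested. Of 13293 genes whose 3rd highest value exceeded the table median, 155 had a highest line set apart by at least as much as SAMHD1, 34 of them in SUP-T11. Genes above the table median in fewer than 3 lines were left out of this count, so it is no share of all genes. Without SUP-T11 the SD of SAMHD1 was still 1.66.

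CDA, which inactivates cytarabine (205627_at), lay below the table median in all 16 lines. The lowest value was 1.37 in SKW-3, the median 14.8 and the highest 29.5 in MOLT-16, followed by LOUCY (26.6) and MOLT-4 (18.0). No line differed from its neighbour by more than 0.44, the step down to SKW-3, and at such levels neither the order nor the spread can be read as expression. The gene has 1 probe set here, so a transcript outside its reach was not measured.

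ADA (204639_at) was abundant in 15 lines and near the floor of the table in 1. It was 12502 in MOLT-4, 12187 in TALL-1, 11009.9 in SKW-3, 10452 in JURKAT, 9284 in PF-382, 8969 in CCRF-CEM, 8953 in KOPT-K1, 8491 in P12-ICHIKAWA, 7758 in ALL-SIL and 6974 in PEER. Lower values were found in SUP-T13 (4975), MOLT-16 (4881), HSB-2 (3785), LOUCY (2919) and DU528 (1984), and SUP-T11 was at 4.91. The step from DU528 to SUP-T11 was 6.58 log2 units on the log2(intensity + 16) scale, which understates differences at low values.

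The other ADA probe set showed the same, with 15.1 in SUP-T11 against 961 in DU528 and 13019 in MOLT-4 (r = 0.98 between the probe sets). Of the 13293 genes whose 3rd highest value exceeded the table median, 6 had a lowest line set apart by at least as much as ADA, 3 of them in SUP-T11: CDK6, the chromatin remodeller gene ARID1A and ADA itself. CDK6 and ARID1A were chosen after their values were seen. SUP-T11 was the lowest line of 13.2% of these genes, the largest share of any line. Without SUP-T11 the SD of ADA was 0.79, and the range fell from 9.23 to 2.65 log2 units. ADA also followed the ACTB ratio by rank (rho = 0.65, r = 0.33; r = 0.26 without JURKAT and MOLT-4), and the part of RNA integrity in its levels was not tested.

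**Figure D2:**
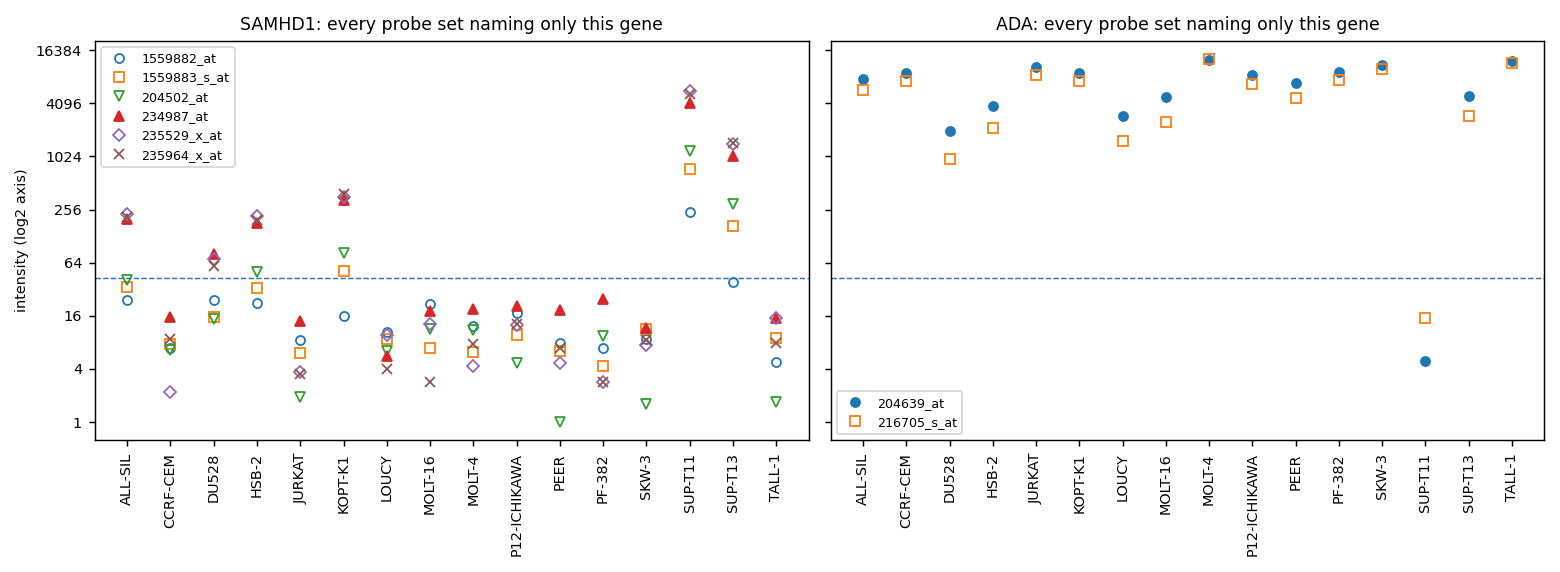
Intensity on a log2 axis of each probe set that names only SAMHD1 (left, 6 probe sets) or ADA (right, 2 probe sets) in the 16 lines; filled symbols are the probe sets used in the text and the dashed line is the table median of 42.4. Every SAMHD1 probe set is highest in SUP-T11 and next in SUP-T13, and both ADA probe sets are lowest in SUP-T11.

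PNP, the purine nucleoside phosphorylase (201695_s_at), was found in every line within 1.51 log2 units. It was highest in JURKAT (2927), MOLT-16 (2724), SUP-T13 (2463), HSB-2 (2449), TALL-1 (2393), CCRF-CEM (2229) and DU528 (2101). PF-382 (1854), MOLT-4 (1826), KOPT-K1 (1676), PEER (1647), LOUCY (1546), ALL-SIL (1530.0) and SKW-3 (1452) followed. SUP-T11 (1213) and P12-ICHIKAWA (1017) were lowest, so SUP-T11, in which ADA was near the floor, kept PNP messenger RNA.

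Both reductase subunits were abundant in every line. RRM1 (201477_s_at) lay between 5807 (P12-ICHIKAWA) and 8499.9 (SKW-3) in 15 lines and at 4122 in SUP-T11, a step of 0.49 below the next. The other RRM1 probe set was also lowest in SUP-T11, at 1157 against a highest of 3068 in KOPT-K1. RRM2 (201890_at) was 9806 in PF-382, 9202 in SKW-3, 8558 in JURKAT, 8325 in CCRF-CEM, 8112 in P12-ICHIKAWA and 7772 in SUP-T13. It was 6998 in KOPT-K1, 6681 in MOLT-4, 6158 in TALL-1, 5836 in ALL-SIL and 5743 in HSB-2, and lowest in PEER (4734), MOLT-16 (4713), SUP-T11 (4308), LOUCY (4269.6) and DU528 (4124). A second RRM2 probe set agreed in part (r = 0.78): PF-382 was highest again (9747) but LOUCY lowest (3294).

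RRM1 and RRM2 are needed for DNA replication, so they were set beside 20 proliferation genes such as MKI67 and AURKB. The mean of these genes, each centred over the lines, had r = 0.60 with RRM1 (rho = 0.44) and r = 0.27 with RRM2 (rho = 0.38). It was lowest in SUP-T11 (-0.39), and without that line r was 0.33 for RRM1 and 0.10 for RRM2. TK1 weighed most in this mean, with an SD of 1.46 against 0.47 for MKI67, the next largest of the 20. AURKB, a mitotic kinase, was lowest in SUP-T11 (1356) and highest in DU528 (4174), whereas RRM2 was lowest in DU528. MKI67 ran from 1288 in JURKAT to 4284 in KOPT-K1, and JURKAT had the third highest RRM2. With the second RRM2 probe set JURKAT was at 6082, below the median of 6498, and LOUCY was lowest in place of DU528. Both comparisons thus depend on the RRM2 probe set. These values describe 16 different lines that share no control.

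Seen by line, the 9 genes gave SUP-T11 the most extremes: it was highest for SAMHD1 and DGUOK and lowest for ADA and RRM1. Of the 13293 genes whose 3rd highest value exceeded the table median it was highest for 9.83% and lowest for 13.2%, so it was often at an extreme in general. DU528 (lowest for 6.82% of these genes) was lowest for SLC29A1 and RRM2 and next to lowest for DCK and ADA. LOUCY (lowest for 8.11%) was itself lowest only for SAMHD1, whose low values have no reliable order. It was within the lowest 3 lines for SLC29A1, DCK, ADA and RRM2. No such share was taken for places other than lowest or highest. DU528 and LOUCY had the lowest ACTB ratios (1.44 and 1.45). RRM2 followed that ratio by rank (rho = 0.51, r = 0.43), as SLC29A1 and ADA did, and the part of RNA integrity was not tested. MOLT-16 (lowest for 11.2% and highest for 11.5%) was lowest for DCK and next to highest for DGUOK and PNP. CCRF-CEM, HSB-2, KOPT-K1, PEER, SUP-T13 and TALL-1 were neither highest nor lowest for any of the 9.

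Whether genes of different steps varied together was described for the 36 pairs, without a test. The median r was 0.03, with 4 pairs above 0.5 and 4 below -0.5. Of the latter, DGUOK with ADA and CDA with RRM2 lay at the limit (both -0.50), and CDA levels have no reliable order. The highest was ADA with RRM1 (r = 0.80, rho = 0.52), and the lowest were SAMHD1 with ADA (r = -0.70, rho = -0.42) and SAMHD1 with RRM1 (r = -0.67, rho = -0.49). All 3 rested in large part on SUP-T11, without which r was 0.44, -0.26 and -0.32. ADA with RRM2 went the other way, with r = 0.56 (rho = 0.75) in all lines and 0.71 without SUP-T11. RRM1 with RRM2 had r = 0.54 (rho = 0.55), and 0.45 without SUP-T11. DCK with RRM2 had r = 0.52 (rho = 0.55), and 0.29 without DU528 and MOLT-16. Without SUP-T11 5 pairs were above 0.5 and 2 below -0.5, namely DCK with DGUOK (-0.50) and CDA with RRM2 (-0.52).

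**Figure D3:**
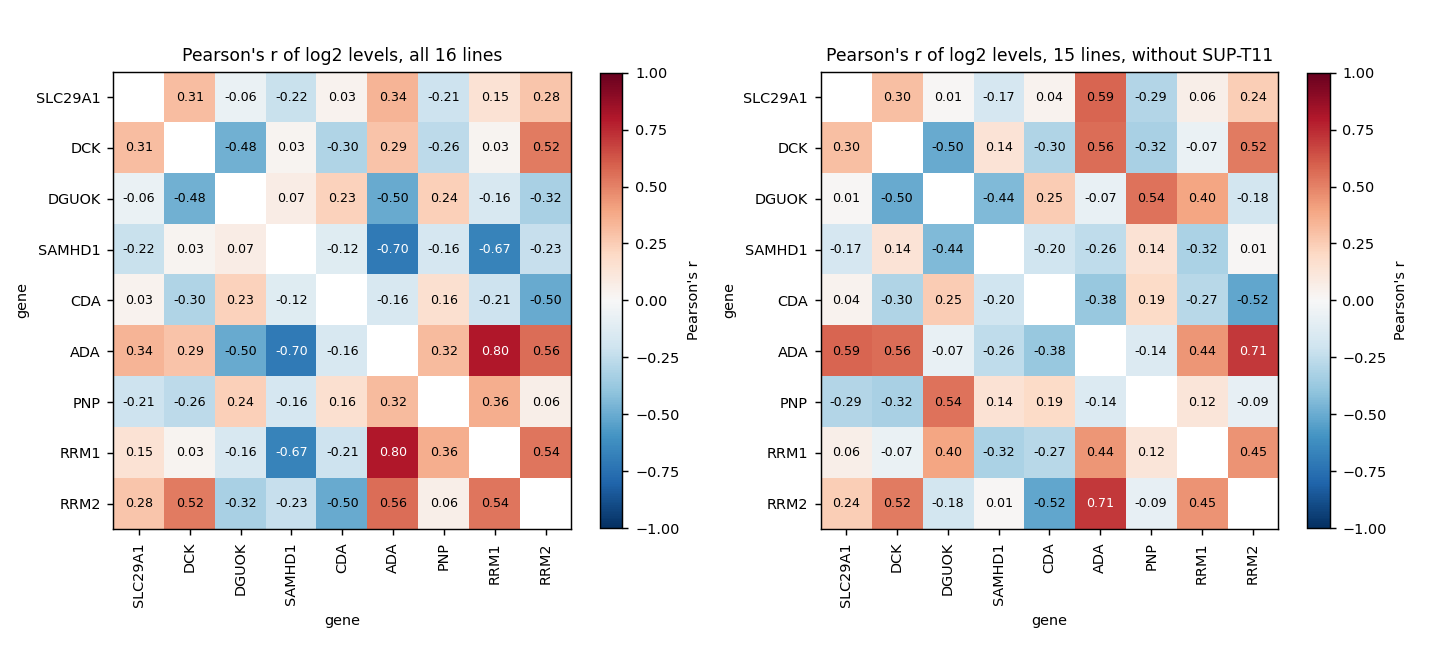
Pearson's r of the log2 levels for each of the 36 pairs of genes, over all 16 lines (left) and over the 15 lines without SUP-T11 (right), from blue (-1) to red (1). ADA with RRM1 goes from 0.80 to 0.44 and SAMHD1 with ADA from -0.70 to -0.26, while ADA with RRM2 goes from 0.56 to 0.71.

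For 4 steps, namely uptake (SLC29A1), first phosphorylation (DCK), triphosphate hydrolysis (SAMHD1) and supply of competing nucleotides (RRM2), limma was used to fit every gene on the level of that gene over the 16 lines. The slope is the change in log2 units per log2 unit of that gene, with its standard error, and p-values were adjusted after Benjamini and Hochberg over all 13292 genes tested. CDA was too low to be tested, which left 7 of the other members in each fit. None of the 7 passed an adjusted p of 0.05 in any of the 4 fits. At an unadjusted p under 0.05 there were 0 of 7 with SLC29A1, 1 with DCK, 2 with SAMHD1 and 3 with RRM2, and of all genes tested 13.4%, 13.05%, 12.1% and 10.4% had such a p in these fits. At the adjusted threshold the share of all genes was 0.700% with SLC29A1 (0.135% higher, 0.564% lower) and 0.00% with DCK. It was 0.248% with SAMHD1 (0.158% higher, 0.0903% lower) and 0.0527% with RRM2 (0.0376% higher, 0.0150% lower).

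The smallest adjusted p of a member was for ADA in the fit on SAMHD1, with a slope of -0.71 ± 0.18 (SE) and an adjusted p of 0.127 in limma. It ran from 0.049 without SUP-T13 to 0.921 without both SUP-T11 and SUP-T13, and was 0.836 without SUP-T11, with a slope of -0.12. For RRM1 in that fit the slope was -0.077 ± 0.023, with an adjusted p of 0.18 in limma (0.11 to 0.907 over the alternatives), and without SUP-T11 it was -0.033. In the fit on RRM2, ADA had a slope of 2.94 ± 1.10 (adjusted p = 0.374 in limma, 0.216 to 0.69 over the alternatives) and RRM1 one of 0.32 ± 0.13 (adjusted p = 0.406 in limma, 0.279 to 0.71). Without SUP-T11 these slopes were 1.37 and 0.19. RRM2 had a slope of 0.67 ± 0.28 in the fit on DCK, with an adjusted p of 0.329 in limma (0.234 to 0.8 over the alternatives), and the slope was 0.27 with each gene's most variable probe set. In simulated data 3% of genes with a slope of 1 were found in the fit on DCK, 45% on RRM2, 68% on SLC29A1 and 95% on SAMHD1. At a slope of 0.5 the shares were 1%, 3%, 41% and 85%. Smaller slopes, such as those of RRM1 (0.32) and DCK (0.41) in the fit on RRM2, were not tested in this way. How often a single member with its own spread would be found was not tested either. A missed threshold is therefore not read as the absence of a relation.

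**Figure D4:**
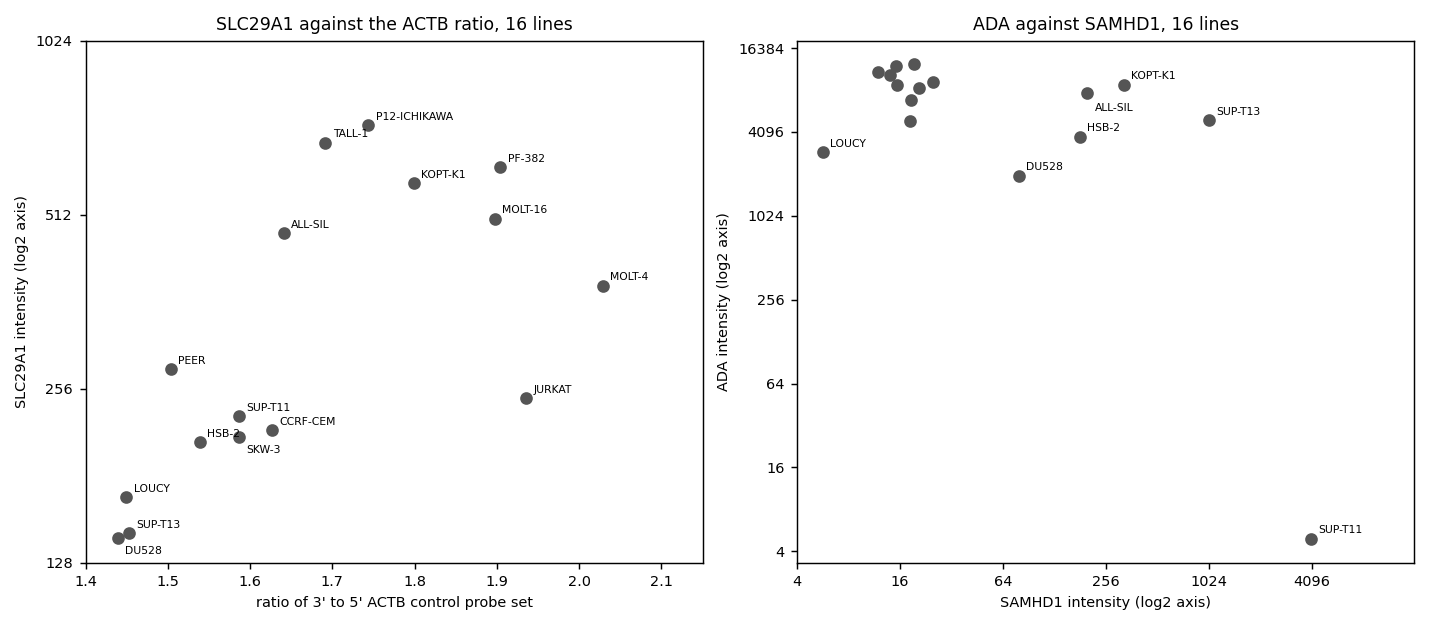
Left, SLC29A1 intensity (log2 axis) against the ACTB 3'/5' ratio of the array; right, ADA against SAMHD1 intensity (both log2 axes); each point is 1 line. SLC29A1 is higher on arrays with a higher ratio (r = 0.66), and SUP-T11 lies alone at the lower right, with SAMHD1 at 4083 and ADA at 4.91.

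Genes outside the 9 that followed a member most closely were named by the highest and lowest r over the 16 lines. SAMHD1 was followed by EHD1, a gene of membrane traffic (r = 0.89), SMIM29 (0.89) and the interleukin-10 receptor gene IL10RA (0.88), and opposed by CENPV (-0.86) and JADE3 (-0.86). IL10RA ran from 14.3 in PEER to 3811 in SUP-T11, with a slope of 0.71 ± 0.10 (adjusted p = 0.0193 in limma) and r = 0.82 without SUP-T11. In this fit 21 genes were higher and 12 lower with SAMHD1, and without SUP-T11 3 genes passed. RRM2 was followed by NDN (r = 0.88), CD8B (0.87) and EVI5L (0.86), and opposed by ZMYM6 (-0.90) and CHGA (-0.88). EVI5L (34.7 to 83.3) and CHGA (3.58 to 85.1) were low in all lines, and EVI5L had an adjusted p of 0.146 in limma. The 5 genes called higher with RRM2 were NDN, CD8B, CD1B, ARPP21 and CD1A (adjusted p from 0.0151 to 0.0246 in limma) and the 2 lower ones CHGA and ZMYM6; after centring the arrays 5 were higher and 4 lower. CD1A and CD1B encode surface molecules of cortical thymocytes and CD8B a coreceptor chain. With the ACTB ratio in the model 0 genes passed, and 960 of 13292 had an unadjusted p under 0.05. None passed without DU528, LOUCY, PF-382 or SKW-3, each left out alone.

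SLC29A1 was followed by PXDC1 (r = 0.92), MFAP4 (0.89) and the histone methyltransferase gene KMT5C (0.86, adjusted p = 0.0602 in limma). MFAP4, a matrix protein gene, ran from 3.42 in SUP-T11 to 2596 in P12-ICHIKAWA. PXDC1 lay between 11.9 and 48.2, near or below the table median, where the order of lines is not reliable. HPS3 (-0.89) and QTGAL (-0.89) went the opposite way to SLC29A1. In its fit 18 genes were higher and 75 lower, or 23 and 46 after quantile normalization. With the ACTB ratio in the model 0 genes passed and 1217 had an unadjusted p under 0.05. DCK was followed by LERFS (r = 0.89), NUDT21 (0.87) and N4BP2L1 (0.85), and opposed by TKFC (-0.86) and FASTKD1 (-0.86), each with an adjusted p of 0.0814 in limma. LERFS was low in all lines (33.1 to 113.7). No gene passed with DCK in limma, and 1734 had an unadjusted p under 0.05. With limma without trend and robust the count was also 0.

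ADA was most like GAS7 (r = 0.96), MFHAS1 (0.94) and CDK6 (0.94), and unlike MXRA8 (-0.94) and GSAP (-0.91). Without SUP-T11 these became 0.72, 0.54, 0.19, -0.41 and -0.67. RRM1 was most like PANX1 (0.91), EXOSC9 (0.89) and GAPDH (0.87), and unlike CHRNA2 (-0.87) and SPAG9 (-0.81). PNP was most like ADO (0.86), GOLT1B (0.84) and SGPL1 (0.83), and unlike GCN1 (-0.78) and ZNF875 (-0.76). DGUOK was most like RIMOC1 (0.81), C2orf69 (0.81) and NT5DC1 (0.80), and unlike ZNF451 (-0.90) and DOHH (-0.85). For CDA, whose values were near background, such a list was not read.

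Of 98 other genes of nucleoside metabolism in 11 lists, 88 were measured. An SD above 1 was found in 14 of the 88, against 12.5% of all genes. Of the 88, 15 never reached 169, against 45.0% of all genes, and 50 exceeded it in every line, against 32.2%. The median SD of the 88 was 0.38, and that of all genes 0.35. Of 6 nucleoside transporter genes 4 never reached 169, and SLC29A2, an equilibrative relative of SLC29A1, reached it only in HSB-2 (372; next highest SUP-T11 at 154), whereas SLC29A3 was highest in LOUCY (471). Of 6 efflux pump genes ABCC4, which exports nucleotides, was 2.35 in ALL-SIL and 1171 in LOUCY, ABCC5 ran from 159 in DU528 to 887 in MOLT-4, and ABCG2 reached 191 in SUP-T11 alone.

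Among 5 salvage kinases TK1, the cytosolic thymidine kinase, was 23.8 in HSB-2 and from 254 to 2374 elsewhere. UCK1 ran from 401 to 1369.6 and UCKL1 from 383 to 1316, above 169 in every line. Of 8 nucleotide kinases CMPK2, a mitochondrial kinase gene, was lowest in SUP-T11 (115) and highest in PEER (4129.9), NME4 was lowest in SUP-T13 (93.3), and AK1 reached 169 in 2 lines. Of 11 nucleotidase and hydrolase genes NT5C3B was 12.6 in ALL-SIL and at least 539.8 elsewhere, NT5C ran from 142 to 1037, and NT5E reached 169 in DU528 alone (206). ALL-SIL, highest for DCK, was thus lowest for ABCC4 and NT5C3B.

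Of 7 deaminases besides ADA and CDA, AMPD3, the AMP deaminase, ran from 3.74 (SUP-T11) to 1497 (PEER), and APOBEC3G, a cytidine deaminase of DNA, was 15.2 in SUP-T11 and 6471 in HSB-2. ADA2, the secreted adenosine deaminase, exceeded 169 in all lines (174 in MOLT-16 and 189 in SUP-T11, to 1189.6 in SUP-T13). In the same list AMPD2 was highest in SUP-T11 (967.8), against 485 in DU528, its lowest line. SUP-T11 was thus lowest for 2 of the 7 listed deaminases and highest for 1. Of the 13293 genes whose 3rd highest value exceeded the table median, it was lowest for 13.2% and highest for 9.83%. GDA and AMPD1 of this list did not pass that filter, so the list and the share are not on the same footing. DPP4, the surface anchor of ADA also called CD26, reached 169 in 5 lines, with 4049 in KOPT-K1 and 3.17 in LOUCY, and was 132 in SUP-T11. The adenosine receptor gene ADORA2B was highest in PEER (383).

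Of 7 phosphorylase and base salvage genes MTAP reached 169 in 5 lines and UPP1 in 3, and APRT exceeded it in all (846 to 2806). Among 9 other genes of deoxynucleotide synthesis CTPS2 reached 169 in 4 lines only, RRM2B, the alternative small subunit of the reductase, ran from 229.7 in TALL-1 to 1275 in SUP-T13, and SHMT2 from 1375 in PEER to 5011 in MOLT-16. Of 14 purine and pyrimidine synthesis genes 13 exceeded 169 in all lines and IMPDH1 was the one with an SD above 1 (161 in KOPT-K1, 4172 in MOLT-16), followed by UMPS and PFAS. All 11 polymerase and repair genes exceeded 169 in every line and none had an SD above 1. Synthesis genes had a median SD of 0.29 and polymerase and repair genes of 0.30, near the 0.35 of all genes. POLA1, POLB and APEX1 had the largest ranges of them, from 1.30 to 1.37 log2 units. Of all genes 32.2% exceeded 169 in every line and 12.5% had an SD above 1. The counts describe the lists and were not tested.

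**Figure D5:**
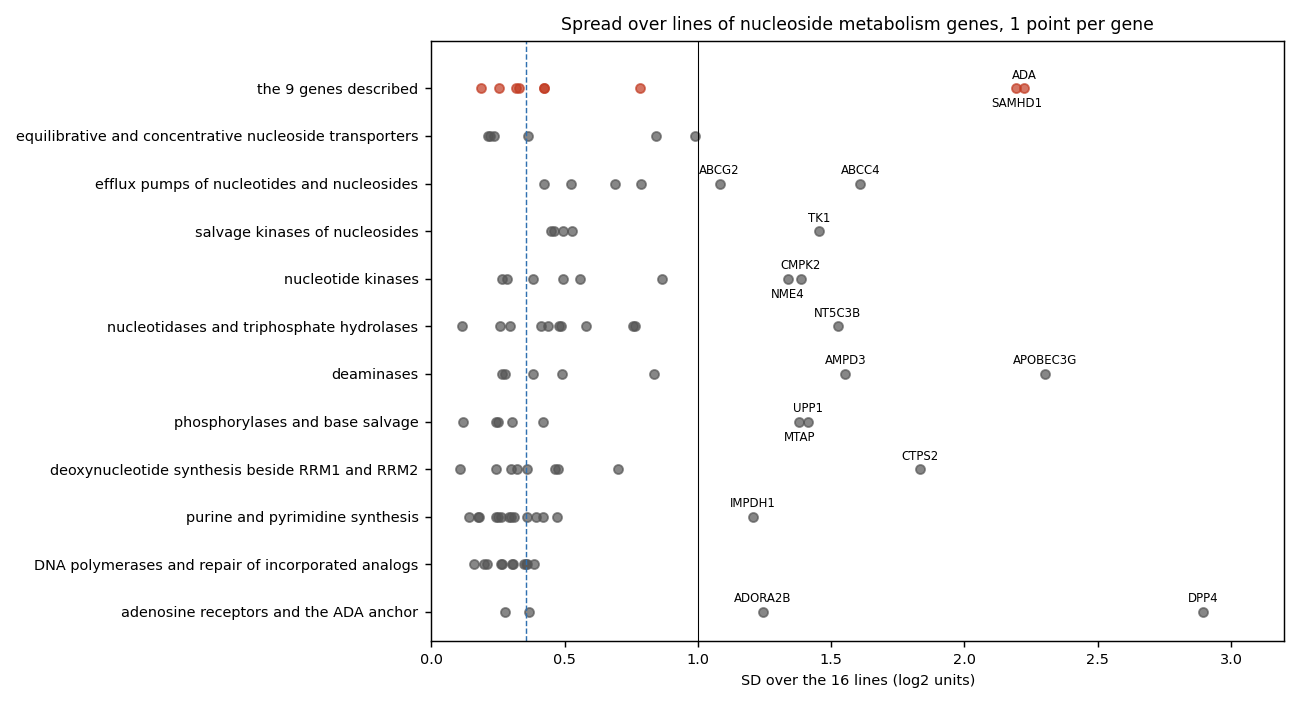
SD over the 16 lines, in log2 units, of the 9 genes (red) and of 88 other measured genes of nucleoside metabolism by list (grey, 1 point per gene), with the median SD of all genes (dashed, 0.35) and an SD of 1 (solid). ADA and SAMHD1 lie at 2.22 and 2.20 and 14 of the 88 other genes lie above 1, against 12.5% of all genes.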

How the data were processed

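The authors deposited 1 table of probe set intensities on a linear scale for 16 arrays (54675 probe sets, per the file headers and values); how they were extracted and scaled is not given in the sources used here, and no further normalization was applied. Log2(intensity + 16) was analysed. Of the probe sets, 41097 were listed with 1 gene (41043 matched to RefSeq by gene ID), 1801 with several and 11777 with none, 62 controls among them, and a gene's level came from its brightest probe set on average, of those naming no other gene. Fits were made in R 4.3.3 with limma 3.58.1, with trend and robust set, on genes whose 3rd highest value exceeded the table median, with Benjamini-Hochberg adjustment and a threshold of 0.05; a gene whose largest gap reached the third part of its range with at least 3 lines on each side would not have been fitted, and none did. The fit was tested on simulated data with 200 genes following the fitted gene and seed 1. Figures came from matplotlib 3.10.9, and descriptive values from pandas 2.3.3, scipy 1.17.1 and numpy 2.4.6 under Python 3.11.15. Alternatives were the pseudocount, array scaling, choice of probe set, filter, limma settings, the ACTB ratio as covariate and lines left out. Named genes are the 9 members in every line, at most 3 genes per list with the largest range among those reaching 4 times the table median, the 3 genes with the highest and 2 with the lowest r to each member, and proliferation genes beside RRM1 and RRM2; others are stated as such. Members and lists were chosen with earlier results of these data known. The number of arrays limits the precision, 0 columns were left out and 0 pairs of arrays were identical.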

Additional observations from a re-analysis of the deposited data

How the results depend on the processing

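No paired analysis was possible because all lines form 1 group. The count of members with an SD above 1 was 2 under every planned scale, scaling and probe set choice, and between 1 and 2 with each line left out in turn (1 without SUP-T11). None of the 7 tested members was called in the 4 fits under any alternative, except ADA with SAMHD1 without SUP-T13. The count of members called with each line left out was thus between 0 and 1 for SAMHD1 and 0 for the others. Counts of genes called were 93 with SLC29A1, 0 with DCK, 33 with SAMHD1 and 7 with RRM2. With SLC29A1 they were 34 without the filter, 0 with the ACTB ratio and 8 without the 2 farthest lines, and between 22 and 136 with each line left out (22 to 54 without ALL-SIL, DU528, HSB-2, LOUCY, MOLT-4, P12-ICHIKAWA, PEER, PF-382, SKW-3, SUP-T13 or TALL-1). With DCK they were 3 after centring the arrays and between 0 and 1 with each line left out (1 without CCRF-CEM or DU528). With SAMHD1 they were 15 with log2(value + 1), 58 with log2(value + 64), 16 with each gene's most variable probe set, 21 without the filter, 14 with the ACTB ratio, 9 without the 2 farthest lines, and between 3 (without SUP-T11) and 60 (without SUP-T13) with each line left out; they were between 11 and 21 without HSB-2, KOPT-K1, LOUCY, MOLT-4, P12-ICHIKAWA, PEER, PF-382 or SKW-3. With RRM2 they were 1 with each gene's most variable probe set, 2 with the mean of all probe sets, 0 with the ACTB ratio, 0 without the 2 farthest lines, and between 0 and 10 with each line left out (0 without DU528, LOUCY, PF-382 or SKW-3, and 2 to 4 without JURKAT, MOLT-16, P12-ICHIKAWA, PEER or SUP-T11). The range of CDA moved with the pseudocount, as its values lie near the floor. The causes of the other changes were not tested. Centring moved arrays by -0.06 to 0.12 log2 units. Genes near or below the table median, such as CDA in all lines and SAMHD1 in 10, have no reliable order.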
